A study of Mus musculus with 4 samples.

Results

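The glutathione peroxidases Gpx1, Gpx3, Gpx4 and Gpx6 were followed across the zones of normal and ischemic mouse kidney sections. The genes were chosen by symbol, and all 4 were found once each among the 32285 genes counted. Expression was measured on Visium slides, on which barcoded spots capture the RNA of the tissue above them, so that each spot reports a small patch that can hold several cell types. Unique molecular identifiers (UMIs) count the captured molecules, and CPM scales a gene's count to the total of its library or zone. The study set out to place T cell genes in normal and injured kidney. The peroxidases were measured in the same libraries as all other genes.

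Both groups were left kidneys of male WT C57BL/6J mice aged 7 to 8 weeks. The normal group consisted of 2 control sections. The ischemic group consisted of 2 sections taken 24 h after both renal pedicles had been clamped for 30 min under pentobarbital and then released. The labels list no clamp and no sham operation for the normal group, so anesthesia, surgery and ischemia cannot be told apart. All 4 sections were 10 µm thick and came from separate capture areas of the same slide.

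Glutathione peroxidases reduce hydrogen peroxide and organic hydroperoxides to water or alcohols, with glutathione as the electron donor. In most members the catalytic residue is selenocysteine, which is inserted at a UGA codon that would otherwise end translation. Gpx1 is the abundant form of the cytosol and mitochondria, and Gpx4 reduces lipid hydroperoxides within membranes and is the enzyme known for holding back ferroptosis. Gpx3 is secreted into plasma, and the kidney proximal tubule is its main source. Gpx6 is a close relative of Gpx3 best known from olfactory tissue.

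The codon at the catalytic position sets Gpx6 apart, and it is shown here with the 15 coding bases on each side in the GRCm38.p6 RefSeq annotation. Capitals mark the codon. In Gpx1, Gpx3 and Gpx4 it is TGA and is annotated as selenocysteine. The Gpx6 window has no such annotation and was found as the best ungapped match of its coding sequence to the Gpx3 window, with 19 of the 30 bases outside the codon identical and 17 for the next best window. All 4 windows lie on the plus strand, each within 1 coding exon.
Gpx1: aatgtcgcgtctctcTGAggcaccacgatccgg
Gpx3: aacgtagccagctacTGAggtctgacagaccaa
Gpx4: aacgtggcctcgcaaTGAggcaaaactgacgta
Gpx6: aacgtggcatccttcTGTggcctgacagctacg

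The windows lie at chr9:108339436-108339468 for Gpx1, chr11:54907241-54907273 for Gpx3, chr10:80054722-80054754 for Gpx4 and chr13:21313762-21313794 for Gpx6. The codon is number 47 of 201 in Gpx1, number 73 of 226 in Gpx3, number 73 of 197 in Gpx4 and number 73 of 221 in Gpx6. The Gpx6 codon TGT is an ordinary sense codon. Over their aligned coding sequences Gpx3 and Gpx6 were 70.3% identical, and the other 5 pairs were between 54.8% and 61.5% identical. In the GENCODE annotation of GRCm38 the genes are protein coding, lie on the plus strand and overlap no other gene. Gpx1 spans chr9:108338903-108340343, Gpx3 chr11:54902453-54910377, Gpx4 chr10:80047166-80056439 and Gpx6 chr13:21312125-21319624. A transcribed Gpx4 pseudogene, Gpx4-ps2, was not among the counted features, so how reads matching both were assigned was not tested.

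The sections held 25957128 to 44528078 UMIs over 10312 tissue spots in all, with medians of 8656 to 16163 UMIs per spot. The injury labels were checked with Havcr1 and Lcn2, kidney injury markers of the tubule. Havcr1 stood at 1.17 and 2.14 normalized CPM in normal sections 1 and 2, compared with 1288 and 1280 in ischemic sections 1 and 2. Lcn2 stood at 5.94 and 7.97 against 2794 and 3284. Some other cell type markers moved with the condition. The summed red blood cell list, 5 globin and heme synthesis genes, held 8905 and 9055 CPM in the control tissue against 765 and 1618 CPM after ischemia, and all 5 genes were lower. The summed adipocyte list of 5 genes held 256 and 122 CPM in the control tissue and 4 CPM in either ischemic section, while the neutrophil list of 5 genes rose from 1 and 2 to 177 and 178 CPM with none at 0.

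Zones were assigned by marker lists within each section. Outer stripe spots made up 30.6% to 30.7% of a normal section and 25.9% to 26.1% of an ischemic one. Cortex made up 43.3% to 45.0% of a normal section and 36.5% to 39.7% of an ischemic one, and inner stripe 12.8% to 14.1% and 17.9% to 20.9%. Within the outer stripe its own list was lower after ischemia: it held 3127 and 3023 CPM in normal and 463 and 489 CPM in ischemic tissue. The inner medulla list was higher in the ischemic outer stripe, at 6283 and 6207 CPM, than in the zone called ischemic inner medulla, at 4110 and 4248 CPM. The ischemic outer stripe and the ischemic inner medulla are therefore named only by their rule.

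All 4 peroxidases were lower in the ischemic than in the normal sections. Levels are given as normalized CPM, that is CPM on library sizes scaled by the trimmed mean of M-values (TMM), and adjusted p-values come from the quasi-likelihood test of edgeR with adjustment after Benjamini and Hochberg over 15305 genes. The 4 genes are read against a background in which 60.6% of the genes tested passed the threshold of 0.05, 31% as higher and 29.7% as lower. Passing the threshold was thus common in this comparison.

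Gpx1 stood at 5695 and 4859 normalized CPM in normal sections 1 and 2, and at 1284 and 1244 in ischemic sections 1 and 2. Both ischemic sections lay far below both normal sections. The means were 5277 ± 591 and 1264 ± 28.0 (SD, n = 2 each), a log2 fold change of −2.06 (SE 0.20, adjusted p = 2.61e-05), or 4.17 times lower. Of all genes tested, 5.97% had a lower log2 fold change than Gpx1.

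Gpx4 stood at 3590 and 2463 normalized CPM in normal sections 1 and 2, compared with 1447 and 1375 in ischemic sections 1 and 2. The normal sections differed from each other more than the ischemic sections did. The means were 3027 ± 797 and 1411 ± 50.7 (SD, n = 2 each), with a log2 fold change of −1.10 (SE 0.22, adjusted p = 0.00191). Without ischemic section 1 or without ischemic section 2 the call was lost, at log2 fold changes of −1.13 and −1.05 and adjusted p of 0.0826 and 0.110.

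Gpx3 stood at 21934 and 15152 normalized CPM in normal sections 1 and 2, compared with 11014 and 9430 in ischemic sections 1 and 2. As for Gpx4, the gap between the nearest sections of the 2 groups was smaller than the gap between the 2 normal sections. The means were 18543 ± 4796 and 10222 ± 1120 (SD, n = 2 each), with a log2 fold change of −0.86 (SE 0.28, adjusted p = 0.0258), the smallest change of the 4. Its call too was lost without ischemic section 1 or without ischemic section 2, with log2 fold changes of −0.96 and −0.74 and adjusted p of 0.364 and 0.504. Even so, Gpx3 gave 1.82% and 1.51% of all UMIs in the normal group, compared with 1.20% and 1.04% in the ischemic group.

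Gpx6 stood at 90.9 and 96.3 normalized CPM in normal sections 1 and 2, compared with 11.5 and 11.0 in ischemic sections 1 and 2. It had the largest change of the 4, and the sections of a condition lay close together. The means were 93.6 ± 3.83 and 11.3 ± 0.412 (SD, n = 2 each), with a log2 fold change of −3.05 (SE 0.10, adjusted p = 1.22e-07), or 8.31 times lower. Only 2.52% of the genes tested had a lower log2 fold change. The ischemic values rest on 392 and 314 UMIs in all.

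**Figure D1:**
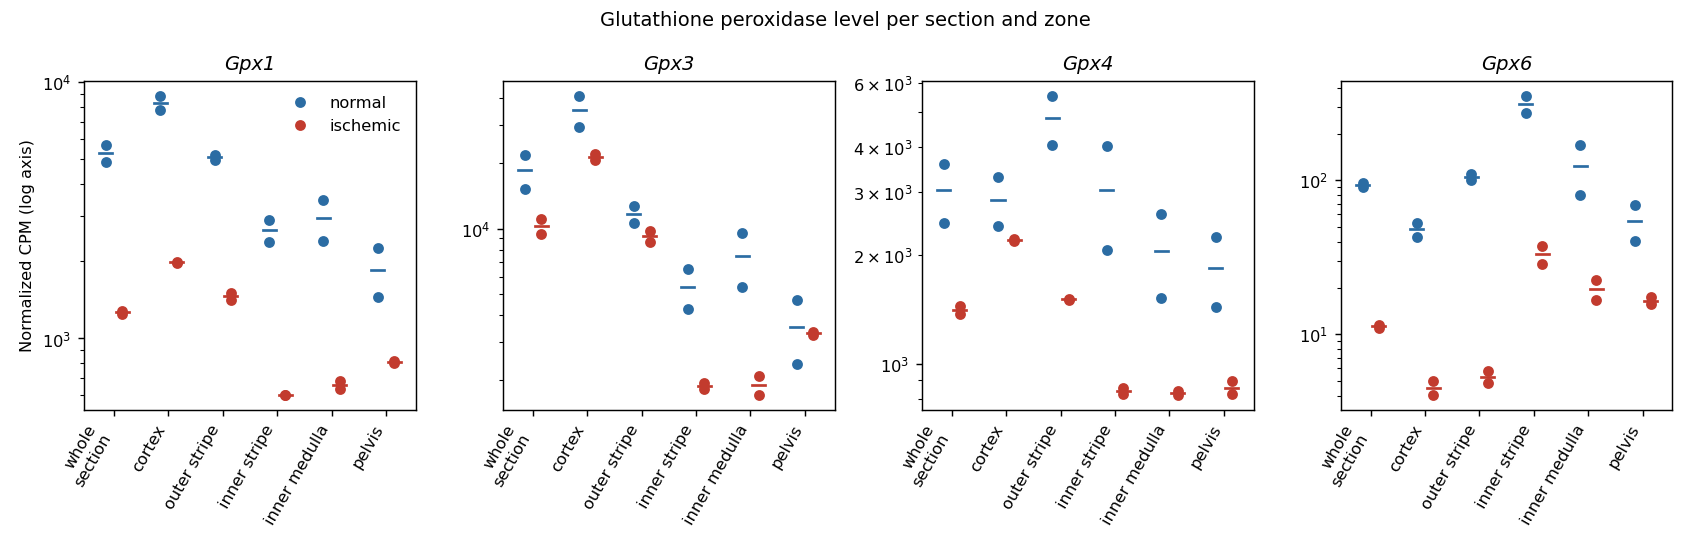
Normalized CPM (log axis) of Gpx1, Gpx3, Gpx4 and Gpx6 in whole sections and in 5 zones, with 1 point per section, normal in blue and ischemic in red, and a line at the mean of the 2 sections. In the outer stripe the normal sections held Gpx4 at 5528 and 4052 and the ischemic sections at 1518 and 1504, while for Gpx3 the values there were 12699 and 10624 against 9722 and 8702.

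The direction of these changes depended little on the scaling. The median log2 fold change of all genes was 0.04 with TMM and 0.31 on plain library sizes, and the share of calls that were higher moved from 51.1% to 67.0%. All 4 peroxidases were lower in whole sections on either scale. Spots are mixtures of cells, so fewer cells of a type and less RNA per cell cannot be told apart in any value given here. All 4 genes were still called lower in whole sections without spots holding 3 or more adipocyte counts. The same held without spots rich in red blood cell counts, those with at least 1% of their UMIs from that list. The part of neutrophil RNA in the result was not tested.

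Mean levels were highest in different zones of the normal kidney, Gpx1 and Gpx3 in the cortex, Gpx4 in the outer stripe and Gpx6 in the inner stripe. Zone values come from a single edgeR model over the 20 sums of section and zone, with 14174 genes tested. In this model 40.1% of genes passed the threshold between conditions in cortex, 20.2% as higher and 19.9% as lower. Outer stripe came to 56.9%, with 27.4% higher and 29.5% lower, inner stripe to 48.2%, with 22.2% higher and 25.9% lower, and inner medulla to 35.1%, with 13.9% higher and 21.2% lower. Of the calls in these 4 zones, in that order, 50.4%, 48.2%, 46.1% and 39.6% were higher with TMM, and 67.6%, 69.3%, 66.7% and 50.5% on plain library sizes, where the median of all genes was 0.22, 0.39, 0.36 and 0.10.

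**Figure D2:**
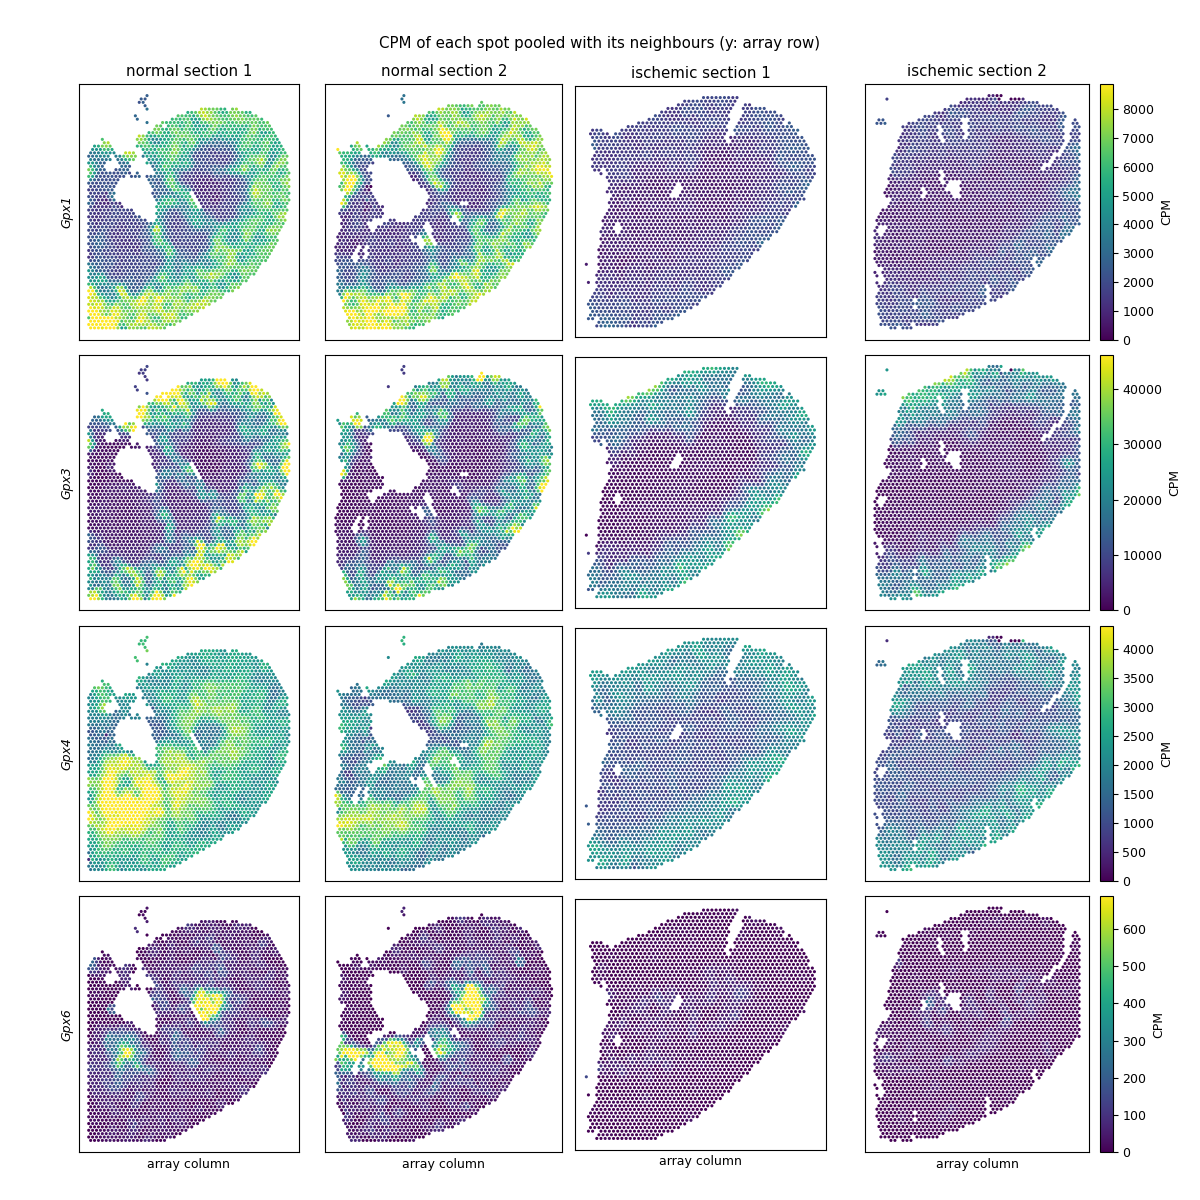
CPM of each spot pooled with its up to 6 neighbours, drawn at the spot's place on the array, with 1 row per gene, 1 column per section and a color scale shared within a row that ends at the 99th percentile. Gpx4 is brightest around the medulla of the normal sections and in the outer rim of the ischemic sections, and Gpx6 forms islands in the normal inner stripe that are faint after ischemia.

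Gpx1 was highest in the cortex. There it stood at 8814 and 7797 normalized CPM in normal tissue against 1985 and 1974 after ischemia. The outer stripe held less, 5184 and 4974 in normal tissue against 1418 and 1500 after ischemia. In the normal kidney the inner stripe, at 2904 and 2374, and the inner medulla, at 3469 and 2407, overlapped. The order of cortex over outer stripe over the deeper zones held in all 4 sections, and from cortex to inner stripe Gpx1 dropped by a factor of 3.04 to 3.29 in each.

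Gpx1 fell in each of the 4 zones tested. The log2 fold change was −2.07 for cortex (SE 0.20, adjusted p = 1.15e-07) and −1.80 for outer stripe (SE 0.20, adjusted p = 2.51e-07). It was −2.13 for inner stripe (SE 0.20, adjusted p = 5.85e-08) and −2.16 for inner medulla (SE 0.20, adjusted p = 1.66e-07). After ischemia the inner stripe held 603 and 604 normalized CPM and the inner medulla 682 and 634. In the pelvis no test was run because its spots were few and its call was unstable. When zones were set from each spot alone, 66.4% and 63.0% of normal and 28.3% and 28.5% of ischemic pelvis spots stayed pelvis. The pelvis list held 5215 and 6336 CPM in the normal and 766 and 1116 CPM in the ischemic pelvis. Gpx1 there stood at 2261 and 1450 normalized CPM in normal tissue against 818 and 803 after ischemia.

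Gpx3 was likewise highest in the cortex. Its level there was 40812 and 29517 normalized CPM in normal tissue against 22003 and 20687 after ischemia. In normal sections the outer stripe held 12699 and 10624, the inner medulla 9566 and 5382 and the inner stripe 6534 and 4264. The last pair overlapped. Within normal sections the highest of the 4 zones exceeded the lowest by a factor of 6.25 and 6.92, and within ischemic sections by a factor of 11.3 and 12.1.

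Gpx3 fell in 3 of the 4 zones tested. In the inner stripe it fell to 1941 and 1820 normalized CPM, with a log2 fold change of −1.52 (SE 0.29, adjusted p = 0.000217), and in the inner medulla to 2083 and 1712, with −1.98 (SE 0.29, adjusted p = 3.13e-05). The cortex list held 1299 and 1174 CPM in the normal inner medulla, against 132 and 105 CPM after ischemia. Median Gpx3 over inner medulla spots of at least 500 UMIs was 5463 and 2145 CPM in normal sections 1 and 2. After ischemia it was 1768 and 1830 CPM. The part of cortex RNA in this fall, and in the inner medulla falls of Gpx1, Gpx4 and Gpx6, was not tested. In the cortex the log2 fold change was −0.72 (SE 0.28, adjusted p = 0.0479), close to the threshold. That call was lost at −0.71 (adjusted p = 0.0569) when spots rich in red blood cell RNA were left out, and without ischemic section 1 or 2, at −0.75 and −0.67 (adjusted p = 0.294 and 0.364).

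In the outer stripe Gpx3 did not pass the threshold. It stood at 9722 and 8702 normalized CPM after ischemia, and the log2 fold change was −0.34 (SE 0.28, adjusted p = 0.313, 95% interval −0.93 to 0.25). On plain library sizes the sign turned, to 0.065 (adjusted p = 0.782), with 8405 and 8325 CPM in normal against 9237 and 8268 CPM in ischemic sections. Without normal section 1 or 2 it passed as lower, at −0.32 and −0.47. Spots within a zone also varied widely: in the normal cortex the 10th and 90th percentiles of Gpx3 over spots were 10977 and 62969 CPM in section 1 and 8880 and 49839 CPM in section 2.

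Gpx4 had its peak in the outer stripe of the normal kidney and in the cortex of the ischemic kidney. Its outer stripe level stood at 5528 and 4052 normalized CPM in normal tissue against 1518 and 1504 after ischemia. In the cortex the values were 3294 and 2409 in normal tissue against 2219 and 2185 after ischemia. The groups lay far apart in the outer stripe and nearly touched in the cortex.

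The log2 fold change of Gpx4 was −1.66 in the outer stripe (SE 0.28, adjusted p = 5.28e-05) and −0.37 in the cortex (SE 0.28, adjusted p = 0.304, 95% interval −0.95 to 0.20). Without normal section 2 the cortex passed as lower, at −0.58 (adjusted p = 1.01e-05). In the inner stripe the normal sections themselves differed, at 4011 and 2064 normalized CPM, and the ischemic sections stood at 825 and 856, a log2 fold change of −1.85 (SE 0.29, adjusted p = 2.56e-05). In the inner medulla Gpx4 stood at 2596 and 1523 in normal tissue against 844 and 821 after ischemia, with −1.31 (SE 0.28, adjusted p = 0.00136). That call was lost without ischemic section 1 or 2, at −1.31 and −1.27 (adjusted p = 0.0769 and 0.0804).

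**Figure D3:**
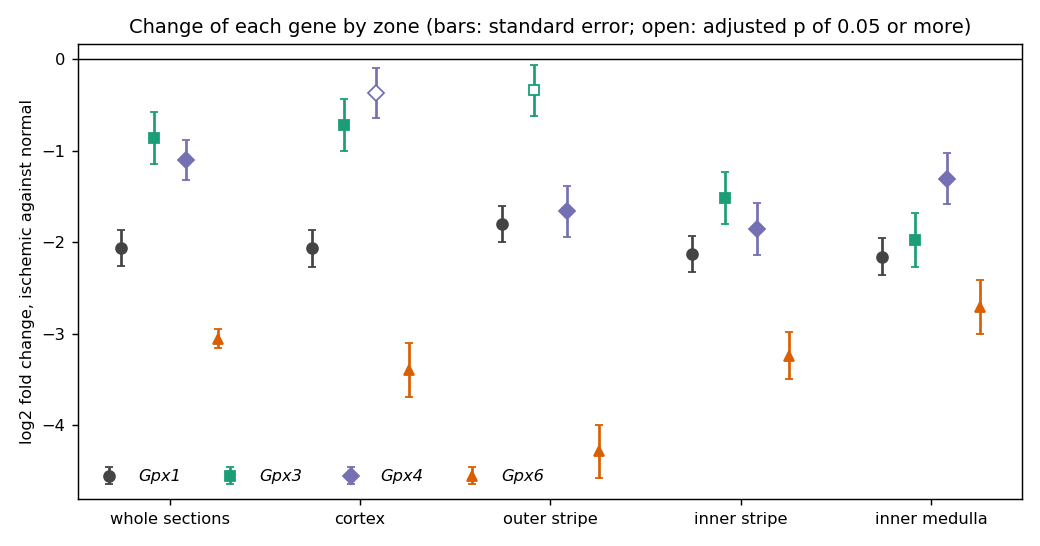
Log2 fold change of ischemic against normal for each gene in whole sections and 4 zones, with bars of 1 standard error, filled marks for adjusted p under 0.05 and open marks for the rest. Gpx1 lies between −2.16 and −1.80 throughout, Gpx6 is lowest in the outer stripe at −4.29, and the 2 open marks are Gpx4 in the cortex at −0.37 and Gpx3 in the outer stripe at −0.34.

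Gpx6 was highest in the inner stripe, the zone of the thick ascending limb. In the inner stripe it stood at 274 and 353 normalized CPM in normal tissue against 37.3 and 28.7 after ischemia. The normal outer stripe held 109 and 100.1, and the normal cortex 52.8 and 43.1. The inner stripe was the highest zone in all 4 sections and the cortex the lowest of the 4 tested zones, with a ratio of 5.19 to 8.18. After ischemia the cortex, at 4.95 and 4.04, and the outer stripe, at 5.77 and 4.85, overlapped.

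Gpx6 fell in every zone tested. The log2 fold change was −4.29 in the outer stripe (SE 0.29, adjusted p = 5.02e-10), −3.40 in the cortex (SE 0.29, adjusted p = 3.02e-08), −3.24 in the inner stripe (SE 0.26, adjusted p = 7.75e-09) and −2.71 in the inner medulla (SE 0.30, adjusted p = 1.33e-06). In the inner medulla it stood at 80.2 and 169 normalized CPM in normal tissue against 16.7 and 22.5 after ischemia, so the normal sections differed there, and without normal section 2 the value was −2.05. The ischemic cortex and outer stripe rest on 35 to 58 UMIs per section, so the counting error there is large. Gpx5, whose gene is a neighbor of Gpx6 on chromosome 13 and whose product is known from the epididymis, had 0 counts in all 4 sections.

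Because Gpx6 was sparse, its detection was also compared at equal depth, with each spot thinned to 2000 UMIs. At that depth a Gpx6 UMI was held by 14.4% and 17.1% of the spots in normal sections 1 and 2. After ischemia the shares were 3.24% and 3.11%. In the inner stripe the shares were 40.1% (95% Clopper-Pearson interval 35.1 to 45.3) and 50.2% (44.6 to 55.7) in normal, and 9.93% (7.25 to 13.2) and 6.42% (4.51 to 8.82) in ischemic sections. In the cortex they were 7.19% and 6.90% against 0.758% and 0.460%. Shallower spots, between 48 and 150 per section, were left out, and intervals cover counting error only. In the pelvis the shares of the groups overlapped, at 5.22% and 14.4% in normal tissue against 6.93% and 7.09% after ischemia. They rest on 6 and 18 normal and 7 and 9 ischemic spots with a Gpx6 UMI. The normalized CPM of Gpx6 in the pelvis, not tested, did not overlap, at 40.3 and 68.7 in normal tissue against 17.4 and 15.7 after ischemia. Without thinning the whole-section shares were 49.9%, 39.1%, 13.0% and 10.1%.

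**Figure D4:**
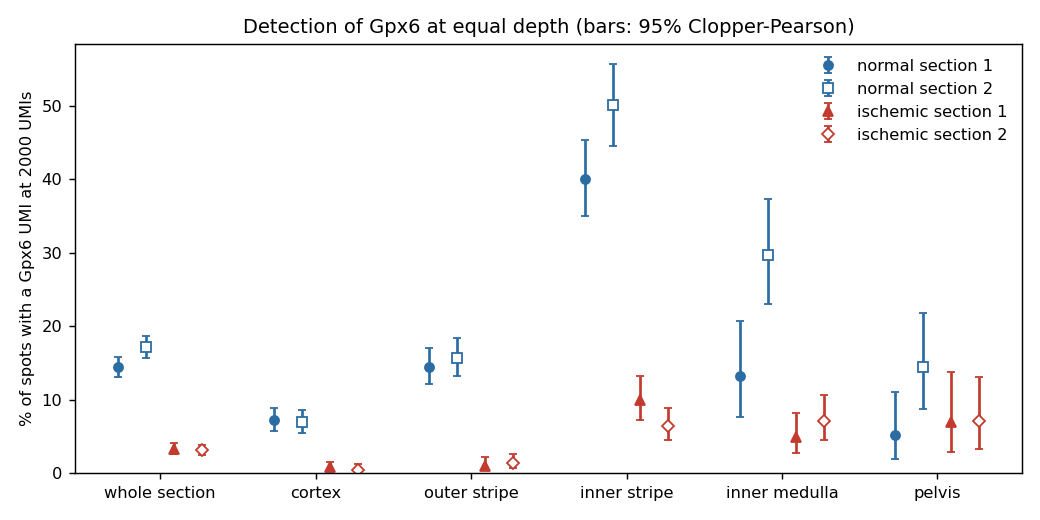
Share of spots with at least 1 Gpx6 UMI after thinning each spot to 2000 UMIs, by section and zone, with 95% Clopper-Pearson intervals for counting error. Normal inner stripe spots reach 40.1% and 50.2%, and ischemic inner stripe spots 9.93% and 6.42%.

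To ask whether injury changed in which zone the genes were high, the outer stripe was set against the cortex. The outer stripe holds the straight segment of the proximal tubule and the cortex the convoluted segment, but both are mixtures. The inner stripe list held 4243 and 4933 CPM in the normal outer stripe, against 1956 and 1874 CPM in the normal cortex. The outer stripe list held 3127 and 3023 CPM in the normal and 463 and 489 CPM in the ischemic outer stripe. The tissue called outer stripe may therefore differ between the groups, and its part in the contrasts was not tested. In normal sections 15.1% of genes passed this contrast, 7.51% as higher and 7.54% as lower in the outer stripe, and of the 4 peroxidases Gpx1, Gpx3 and Gpx6 did. Gpx3 was lower in the outer stripe, with a log2 difference of −1.59 (SE 0.29, adjusted p = 0.000525), and so was Gpx1, with −0.71 (SE 0.19, adjusted p = 0.0147), while Gpx6 was higher by 1.12 (SE 0.23, adjusted p = 0.00191). Without ischemic section 1 or 2 the Gpx1 call was lost, at −0.71 for either and adjusted p of 0.147 and 0.151. Gpx4 was at 0.75 (SE 0.28, adjusted p = 0.0802), and higher in the outer stripe in both normal sections. The sums of the 2 zones of a section were treated as independent, and with the section as a random block in limma Gpx4 passed as higher at 0.75 (adjusted p = 0.00424). It also passed when normal section 1 or 2 was left out, at 0.74 and 0.75.

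In ischemic sections 26.5% of genes passed, 12.2% as higher and 14.3% as lower. Of the 4 peroxidases Gpx3 passed, at −1.21 (SE 0.28, adjusted p = 0.00338). That call was lost without ischemic section 1 or 2, at −1.25 and −1.18 (adjusted p = 0.249 and 0.261). Gpx1 was at −0.44 (SE 0.19, adjusted p = 0.0976), Gpx4 at −0.54 (SE 0.28, adjusted p = 0.161) and Gpx6 at 0.23 (SE 0.36, adjusted p = 0.682). Without normal section 1 or 2, Gpx1 passed at −0.48 and −0.44 and Gpx4 at −0.59 and −0.54. For Gpx4 both ischemic sections held less in the outer stripe than in the cortex, the reverse of both normal sections.

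The difference between the 2 contrasts was tested as an interaction, which 11.7% of genes passed, 4.42% in the positive and 7.33% in the negative direction. Gpx4 passed at −1.29 (SE 0.39, adjusted p = 0.0375, 95% interval −2.11 to −0.47). It did not pass with DESeq2, at −1.24 (adjusted p = 0.0501), or without ischemic section 1 or 2, at −1.29 and −1.30. Nor did it pass in edgeR without spots holding 3 or more adipocyte counts, at −1.16 (adjusted p = 0.0596), or without spots rich in red blood cell counts, at −1.17 (adjusted p = 0.0684). The value for Gpx6 was −0.89 (SE 0.43, adjusted p = 0.202, 95% interval −1.79 to 0.01), for Gpx3 0.38 (SE 0.40, adjusted p = 0.610) and for Gpx1 0.27 (SE 0.27, adjusted p = 0.593). Without normal section 1 or 2, Gpx6 passed at −1.02 and −0.82, and without normal section 2, Gpx3 passed at 0.47. Of the calls in the normal contrast and in the interaction 49.9% and 37.6% were higher with TMM, and 35.8% and 48.5% on plain library sizes.

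Across spots Gpx4 was also set against the marker lists themselves. The same lists assigned the zones, so the values with them restate the zone contrast and are no separate test of it. With CPM pooled over each spot and its neighbors, Spearman's rho of Gpx4 with the summed outer stripe list was 0.84 and 0.85 in normal sections over 2616 and 2682 spots. In ischemic sections, over 2401 and 2613 spots, it was −0.29 and −0.25. With the cortex list it was −0.55 and −0.29 in normal tissue against 0.80 and 0.78 after ischemia. With Gpx3 the values were −0.43 and −0.09 against 0.89 and 0.82, and with Gpx1 −0.33 and 0.01 against 0.86 and 0.82. Gpx4 thus followed the outer stripe markers in the normal kidney and the cortex markers and the other 2 selenoprotein peroxidases after ischemia. Neighboring spots share counts and each spot's values share its depth, so these are descriptions.

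Gpx1 and Gpx3 tracked each other in both conditions. Their rho with each other was 0.85 and 0.84 in normal tissue against 0.89 and 0.85 after ischemia, and Gpx3 with the cortex list gave 0.94, 0.91, 0.89 and 0.86 in normal sections 1 and 2 and ischemic sections 1 and 2. Against the injured tubule list, Havcr1, Lcn2, Krt20 and Sprr1a, rho in the ischemic sections was −0.93 and −0.90 for Gpx3, −0.85 and −0.80 for Gpx1 and −0.84 and −0.80 for Gpx4, and it was 0.51 and 0.40 for Gpx6. Spots with more injury marker RNA therefore held less of the 3 selenoprotein peroxidases. The injury list itself was lowest in the cortex, at 2172 and 2125 CPM, against 5553 and 5533 CPM in the outer stripe and 8496 and 9374 CPM in the inner stripe. Gpx6 with the inner stripe list gave 0.75 and 0.82 in normal tissue against 0.61 and 0.55 after ischemia.

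The genes whose pattern over the 20 sums of section and zone was most like each peroxidase were found by Pearson's r of log2(CPM + 1) among 14174 genes. For Gpx1 these were Ass1, an enzyme of arginine synthesis (r = 0.992), Miox, which begins inositol breakdown (r = 0.989), and Slc34a1, a phosphate transporter of the proximal tubule (r = 0.981). Slc34a1 is also in the cortex list. For Gpx3 they were Dleu7 (r = 0.964), Slc4a4, the basolateral bicarbonate transporter of the proximal tubule (r = 0.963), and Prr5 (r = 0.955). For Gpx4 they were Acss2, which makes acetyl-CoA from acetate (r = 0.977), Gm42375 (r = 0.976) and Ggt1, which breaks down extracellular glutathione (r = 0.975). For Gpx6 they were Slc12a1, the sodium, potassium and chloride transporter of the thick ascending limb (r = 0.982), Ppp1r1b (r = 0.969) and Wfdc15b (r = 0.964). Slc12a1 is in the inner stripe list. The zones and the condition are shared by all 20 sums, so a high r marks a like zonal pattern and like change, as a description.

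Ggt1 shows what that likeness looked like for Gpx4. In the outer stripe it stood at 1236 and 975 normalized CPM in normal tissue against 145 and 143 after ischemia, and in the cortex at 826 and 605 in normal tissue against 281 and 317 after ischemia. Its level, too, was higher in the outer stripe than in the cortex in both normal sections and lower there in both ischemic sections.

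Gpx7 and Gpx8, members of the family in the endoplasmic reticulum that use no selenium, did not share the fall and both rose in whole sections. Gpx7 went from 4.58 and 4.60 to 8.21 and 8.80 normalized CPM, a log2 fold change of 0.89 (SE 0.15), and Gpx8 from 28.8 and 31.4 to 46.0 and 44.6, a log2 fold change of 0.59 (SE 0.09). Gpx2, the intestinal form, had at most 0.244 normalized CPM in a section and, like Gpx5, was not tested in whole sections. The outer stripe rises of Gpx7 and Gpx8 were 1.34 and 1.08 on the log2 scale. In the cortex they were at 0.31 and 0.11 and did not pass.

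Of 15 genes that supply and recycle glutathione, all tested, 7 rose, 5 fell and 3 did not pass, where 31% of all genes tested rose and 29.7% fell. The median log2 fold change was 0.14 beside 0.04 for all genes. The cystine carrier Slc7a11 rose from 0.136 and 0.145 to 4.45 and 4.64 normalized CPM (log2 fold change 4.98), Chac1, which degrades glutathione inside cells, by 3.09 and Pgd, a source of NADPH, by 1.65. Among those that fell, the turnover enzymes Ggct and Ggt1 had log2 fold changes of −2.55 and −2.21 and Me1, another source of NADPH, −1.58. The Slc7a11 values in the normal sections are near the limit of counting.

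**Figure D5:**
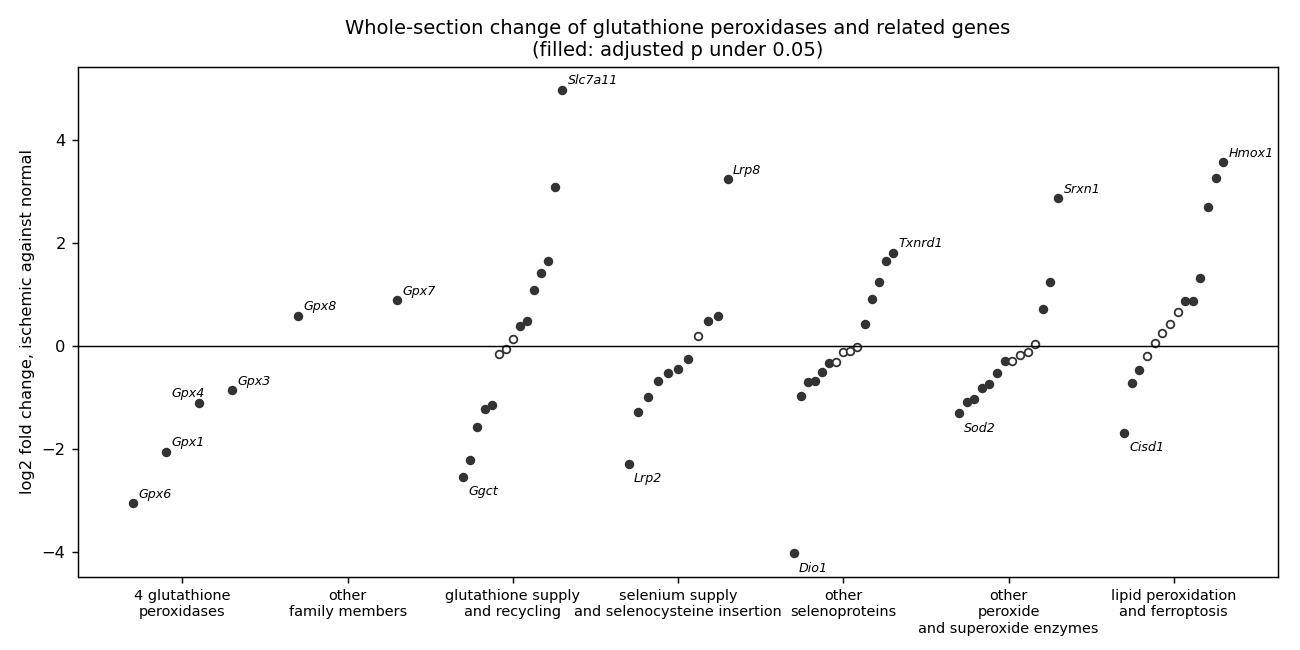
Log2 fold change of ischemic against normal in whole sections for the 4 peroxidases and for the tested genes of 6 related lists, 1 point per gene, filled where adjusted p was under 0.05, with the highest and lowest gene of each list named. All 4 peroxidases lie below 0, at −0.86 to −3.05, Gpx7 and Gpx8 lie above 0, and the other lists hold genes on both sides.

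Of 11 genes that deliver selenium and insert selenocysteine, all tested, 7 fell, 3 rose and 1 did not pass, beside 29.7% lower and 31% higher among all genes. The median was −0.44 beside 0.04. Lrp2, the receptor through which the proximal tubule takes up selenoprotein P, fell from 664 and 529 to 126 and 116 normalized CPM (log2 fold change −2.31). Sephs2, which makes the selenium donor, had −1.28, and Selenop itself, the plasma selenium carrier, −0.99. The rises were Lrp8, the selenoprotein P receptor of other tissues (3.24), Sars (0.59) and Trnau1ap (0.48). On plain library sizes 4 genes of this list passed as lower, and Pstk, a kinase of selenocysteine synthesis, changed sign.

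Of 16 other selenoproteins, which depend on the same selenium supply, 15 were tested. Here 6 fell, 5 rose and 4 did not pass, again beside 29.7% lower and 31% higher among all genes, and the median was −0.12 beside 0.04. Dio1, the deiodinase, had the largest fall at −4.04, followed by Selenom at −0.98 and Selenoo at −0.71. Txnrd1, the cytosolic thioredoxin reductase, went from 104 and 83.3 to 331 and 329 normalized CPM (log2 fold change 1.82), and Selenoi and Selenon rose by 1.66 and 1.24.

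Of 14 other genes of peroxide and superoxide removal and of the thioredoxin system, 7 fell, 3 rose and 4 did not pass. This stood beside the same 29.7% lower and 31% higher among all genes, with a median of −0.29 beside 0.04. The superoxide dismutases Sod2 and Sod3 had log2 fold changes of −1.31 and −1.10, and catalase, Cat, −1.03. Srxn1, which repairs oxidized peroxiredoxins, rose by 2.88, Txn1, thioredoxin, by 1.25 and Prdx6, a peroxiredoxin that can use glutathione, by 0.72. In the outer stripe Cat, like Gpx4, was lower after ischemia (−1.62), while in the cortex it was at −0.23 and did not pass, and its interaction passed at −1.39.

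Of 15 genes of lipid peroxidation, iron handling and ferroptosis 14 were tested. In whole sections 6 rose, 3 fell and 5 did not pass, beside 31% higher and 29.7% lower among all genes, with a median of 0.54 beside 0.04. Hmox1, which releases iron from heme, rose by 3.58 on the log2 scale, to 206 and 199 normalized CPM. Gch1, the first enzyme of biopterin synthesis, rose by 3.27 and Acsl4, which loads membranes with oxidizable fatty acids, by 2.70. Cisd1, Alox12 and Ncoa4 had −1.70, −0.71 and −0.48. On plain library sizes 8 genes of this list passed as higher and 1 as lower. Acsl4 rose in all 4 zones tested, with log2 fold changes of 2.51 for cortex, 2.86 for outer stripe and 2.95 for either deeper zone. The Gpx4 changes were −0.37 for cortex, which did not pass, −1.66 for outer stripe, −1.85 for inner stripe and −1.31 for inner medulla.

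The change of the difference between outer stripe and cortex, in which Gpx4 passed, was also called for 17 genes of these lists. Of all genes tested 11.7% passed, 4.42% in the positive and 7.33% in the negative direction. In the glutathione list it was negative for Ggt1 (−1.68), Oplah (−2.27) and the synthesis enzymes Gclc (−1.31) and Gss (−1.36), and positive for Slc3a2 (1.49). In the selenium list it was negative for Selenop (−1.47), Sephs2 (−1.14), Scly (−0.78) and Lrp8 (−2.27), and among the selenoproteins for Dio1 (−2.39) and Selenoh (−0.87). It was positive for Gpx8 (0.98), Prdx4 (0.71), Srxn1 (1.32), Gch1 (2.06) and Alox5 (3.21), and negative for Cat. Tested here were 3 genes of the family list, 15 of the glutathione list, 11 of the selenium list and 15 other selenoproteins. The peroxide and superoxide list and the lipid peroxidation list had 14 tested genes each.

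The counts for these lists moved with single libraries. Without ischemic section 1 or 2 the number that passed as lower was 5 and 4 of the selenium list, 3 and 4 of the peroxide and superoxide list and 1 and 1 of the lipid peroxidation list, while every gene called in whole sections kept its sign in these fits. The sections carry no mouse identity, and the study describes technical replicates of each mouse, so the p-values may measure only technical spread between sections.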

How the data were processed

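The authors' deposited values are raw UMI counts per gene and spot, made with Space Ranger 1.3.0 per the file headers and mm10 per the submitters' processing notes, from 2 normal and 2 ischemic kidney sections. For the annotation release, the version is not given in these sources. The counts hold only spots over tissue and were used as deposited.

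Spots were placed in cortex, outer stripe, inner stripe, inner medulla or pelvis by the marker list with the highest score within the section, over each spot and up to 6 neighbors. Pelvis spots needed at least 10 counts of their list and a place in the top 5% of the section. Counts were summed per section, and per section and zone of at least 20 spots. No doublet caller was run, since spots are mixtures.

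Sums were tested with edgeR 4.0.16 (TMM, default expression filter, quasi-likelihood test, Benjamini-Hochberg adjustment over all genes tested, threshold 0.05) in R 4.3.3. Pelvis sums entered the zone fit without a comparison of their own. Gpx6 detection was counted after thinning each spot to 2000 UMIs. The alternatives were DESeq2 1.42.0 as a test and as a source of size factors, plain library sizes, no expression filter, limma 3.58.1 voom with the section as a random block, a replicate block, other rules for spots and zones, and leaving out each section. Leaving out spots rich in red blood cell counts was added after the data were seen. Gene sequences and positions came from RefSeq (GRCm38.p6) and GENCODE through Biopython 1.88. The fits were tested on simulated data before use. Plots and tables used Python 3.11.15, numpy 2.4.6, scipy 1.17.1, pandas 2.3.3 and matplotlib 3.10.9.

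The 4 peroxidases, the marker lists and the 6 related gene lists were chosen with earlier results of these data known. Named genes were all 4 peroxidases, Havcr1 and Lcn2 as checks of injury, up to 3 largest rises and 3 largest falls past the threshold of each related list in whole sections, the 3 genes most like each peroxidase, and the members of any count of 5 or fewer, which covers the genes named for the interaction. Pstk, and Acsl4, Cat and Ggt1 by zone, were singled out after their values were seen.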

Additional observations from a re-analysis of the deposited data

Results flagged for a closer look

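The difference between outer stripe and cortex changed with ischemia for Gpx4, by −1.29 on the log2 scale (SE 0.39, adjusted p = 0.0375 from edgeR's interaction test). It was singled out because a test of the difference itself passed the threshold. The outer stripe exceeded the cortex by 0.75 in normal sections and fell short of it by −0.54 in ischemic sections, with both sections of each group showing the direction. Neither value passed alone in that fit (adjusted p = 0.0802 and 0.161). Zones were set by marker scores within each section, and the outer stripe list of that zone was lower after ischemia. A change in the tissue called outer stripe therefore cannot be told apart from a change of Gpx4 within it. Over the alternatives the interaction lay between −1.32 and −1.11, with adjusted p from 2.17e-08 to 0.465.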

How the results depend on the processing

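Of 32 results on the 4 peroxidases, 17 kept their direction and side of the threshold under each alternative run for them, 13 for a whole-section and 16 for a zone result. The direction turned for Gpx3 in the outer stripe, ischemic against normal, on library sizes without TMM (0.065), and for Gpx6, outer stripe against cortex in ischemic sections, with zones set from each spot alone (−0.021). Neither had passed. Without spots rich in red blood cell counts, an alternative chosen after seeing the data, Gpx3 in the cortex (−0.71) and the Gpx4 interaction (−1.17) no longer passed. The Gpx4 interaction was also lost with DESeq2 and with DESeq2 size factors in edgeR (−1.24 in either) and without spots holding 3 or more adipocyte counts (−1.16). The cause was not tested. The outer stripe against the cortex passed for Gpx4 in normal sections with no filter (0.70), without TMM (0.59), with zones from each spot alone (0.81) and in voom with the section as a random block (0.75). In ischemic sections it passed for Gpx4 with no filter (−0.47), without TMM (−0.52) and in voom (−0.54), and for Gpx1 without TMM (−0.41) and in voom (−0.44). Voom called 2860 genes for the interaction against 1665.

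The replicate numbers pair no sections by design, and the section 1 minus section 2 differences of the groups correlated at 0.16 over 15305 genes, from 2 pairs. With a replicate block the outer stripe against cortex contrast passed for Gpx4 in normal sections (0.75) and, in ischemic sections, for Gpx4 (−0.54) and Gpx1 (−0.44). The block moved no count of calls past 1.5 times and changed no other call of the 4 genes.

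Leaving out 1 section leaves a group with 1 section, which is then assumed to vary like the other group. The ischemic against normal change then ranged from −1.13 to −0.56 for Gpx3 and from −1.38 to −0.79 for Gpx4 in whole sections, from −0.94 to −0.55 for Gpx3 and from −0.58 to −0.21 for Gpx4 in the cortex, from −0.47 to −0.26 for Gpx3 in the outer stripe and from −1.64 to −0.81 for Gpx4 in the inner medulla. Outer stripe against cortex in normal sections ranged from −0.76 to −0.66 for Gpx1 and from 0.74 to 0.75 for Gpx4. In ischemic sections it ranged from −0.48 to −0.39 for Gpx1, from −1.26 to −1.18 for Gpx3 and from −0.59 to −0.54 for Gpx4. The interaction ranged from 0.23 to 0.47 for Gpx3, from −1.32 to −1.29 for Gpx4 and from −1.02 to −0.82 for Gpx6. Genes called ranged from 2508 to 7090 in the cortex, 4220 to 7511 in the inner stripe and 2549 to 4598 in the inner medulla, from 1128 to 2751 and from 589 to 5979 for outer stripe against cortex in normal and in ischemic sections, and from 14 to 2960 for the interaction. All low counts came without an ischemic section.

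The mean share of spots with Gpx6 moved with depth, from 15.8% in normal and 3.18% in ischemic sections at 2000 UMIs to 8.41% and 1.3% at 1000 UMIs and 44.5% and 11.5% unthinned. Shares and intervals cover counting error only, and 2 sections a group limit every test.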
